A study of Homo sapiens with 8 samples.

Results

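The comparison described here set Orc6-depleted cells against control cells, both under oxidative damage. Its members were the accessible regions found when the deposited peak lists of siOrc6 with H2O2 and siGl3 with H2O2 were merged on chromosomes 1 to 22 and X, which gave 110517 regions. A separate merge of all lists of the series gave 129052. The assay was ATAC-seq, where a transposase inserts sequencing adapters into DNA that is not packed away, and the cells were U2OS, an established human osteosarcoma line. Cells carried siOrc6 or the control siRNA siGl3 for 72 h, passed a double thymidine block that holds cells at the start of S phase, were released for 3 h, and then received 5 mM H2O2 for 30 min. The same siRNAs without H2O2 served as a second pair of lists. Each condition had 2 libraries, numbered 1 and 2 by batch, and 1 list whose name carries both numbers, and the labels do not say whether the libraries came from separate cultures. Neither the spread between libraries nor their depth is therefore known and no difference below has a replicate test.

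Orc6 is a small subunit of the origin recognition complex (ORC), which binds DNA where replication can begin and helps to load the MCM helicase. Open chromatin at gene starts and enhancers is where the transposase cuts most, and loss of histones or movement of nucleosomes changes how much of a site it can reach. H2O2 oxidises bases and breaks DNA strands, and cells answer with repair, checkpoint and antioxidant genes.

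A region was called shared when both lists had a peak in it, and siOrc6 only or siGl3 only otherwise. Peaks were ranked by the authors' signal within their own list, from 0 for the weakest to 100 for the strongest, and the shift of a shared region is its best siOrc6 percentile minus its best siGl3 percentile. Shared regions with a shift of 20 points or more are called risen or fallen. These calls describe 2 lists and are not tests.

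Regions that gained standing in siOrc6 and those that lost it differed in the sequence of the gene starts they covered. RefSeq promoters of GRCh38.p14, with 250 bases before and 50 after a start, were available for 22132 starts of 15812 protein-coding genes. At the 121 starts under a siGl3-only region the promoter held a median of 5 CpG dinucleotides, against 11 at the 177 starts under a siOrc6-only region and 21 over all starts. The 250 bases before the start, with each CpG in capitals, are given for the 2 starts of each class that lay wholly in the strongest such region or in the one with the largest shift. IL19 and FCMR were siGl3 only, GGT1 and LOC124901110 had fallen, KIF1A and TMEM59L were siOrc6 only, and MANEAL and S100A2 had risen. SMARCA1, the second ISWI remodelling ATPase and a gene named in any case, is added. Its start was siOrc6 only, but just 183 of its 300 promoter bases lay in the region.
IL19, chr1:206770523-206770772, plus strand: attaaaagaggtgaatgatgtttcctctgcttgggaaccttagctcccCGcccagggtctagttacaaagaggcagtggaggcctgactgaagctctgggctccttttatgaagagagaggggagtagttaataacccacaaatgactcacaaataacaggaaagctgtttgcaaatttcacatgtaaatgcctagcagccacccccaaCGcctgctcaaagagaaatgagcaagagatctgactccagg
FCMR, chr1:206923197-206923446, minus strand: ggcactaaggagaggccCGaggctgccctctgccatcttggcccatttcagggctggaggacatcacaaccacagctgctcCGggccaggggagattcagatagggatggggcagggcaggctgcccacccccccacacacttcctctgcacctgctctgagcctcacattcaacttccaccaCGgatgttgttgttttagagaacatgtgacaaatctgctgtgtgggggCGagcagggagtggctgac
GGT1, chr22:24583500-24583749, plus strand: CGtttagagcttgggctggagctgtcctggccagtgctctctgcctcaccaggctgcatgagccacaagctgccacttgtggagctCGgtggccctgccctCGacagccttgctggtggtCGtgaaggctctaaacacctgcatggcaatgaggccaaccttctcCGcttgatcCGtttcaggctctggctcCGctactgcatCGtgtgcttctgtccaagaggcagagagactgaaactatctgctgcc
LOC124901110, chr5:150780402-150780651, minus strand: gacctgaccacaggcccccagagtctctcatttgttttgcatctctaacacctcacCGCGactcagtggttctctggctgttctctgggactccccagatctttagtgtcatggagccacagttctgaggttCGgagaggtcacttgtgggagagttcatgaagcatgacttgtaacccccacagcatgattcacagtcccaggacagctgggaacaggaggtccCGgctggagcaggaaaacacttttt
KIF1A, chr2:240821040-240821289, minus strand: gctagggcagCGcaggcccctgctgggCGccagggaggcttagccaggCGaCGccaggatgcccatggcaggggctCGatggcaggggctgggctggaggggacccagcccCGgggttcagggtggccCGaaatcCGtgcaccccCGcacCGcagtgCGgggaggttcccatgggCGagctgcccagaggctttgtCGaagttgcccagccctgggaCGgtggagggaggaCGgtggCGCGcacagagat
TMEM59L, chr19:18612620-18612869, plus strand: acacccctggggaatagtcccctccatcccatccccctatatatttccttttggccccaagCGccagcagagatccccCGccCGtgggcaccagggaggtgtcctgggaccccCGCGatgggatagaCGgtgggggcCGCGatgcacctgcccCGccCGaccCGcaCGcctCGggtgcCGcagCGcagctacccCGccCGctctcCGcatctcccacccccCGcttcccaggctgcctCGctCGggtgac
MANEAL, chr1:37795238-37795487, plus strand: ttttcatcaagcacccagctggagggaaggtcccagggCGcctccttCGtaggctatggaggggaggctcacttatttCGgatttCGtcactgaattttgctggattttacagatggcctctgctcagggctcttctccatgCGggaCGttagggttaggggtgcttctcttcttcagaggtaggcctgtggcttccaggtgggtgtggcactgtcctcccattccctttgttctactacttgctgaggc
S100A2, chr1:153563888-153564137, minus strand: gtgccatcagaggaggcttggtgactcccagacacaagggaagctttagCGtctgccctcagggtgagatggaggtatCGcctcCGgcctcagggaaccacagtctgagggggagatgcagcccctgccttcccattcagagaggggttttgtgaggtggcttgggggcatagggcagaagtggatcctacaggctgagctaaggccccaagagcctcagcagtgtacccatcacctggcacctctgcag
SMARCA1, chrX:129523491-129523740, minus strand: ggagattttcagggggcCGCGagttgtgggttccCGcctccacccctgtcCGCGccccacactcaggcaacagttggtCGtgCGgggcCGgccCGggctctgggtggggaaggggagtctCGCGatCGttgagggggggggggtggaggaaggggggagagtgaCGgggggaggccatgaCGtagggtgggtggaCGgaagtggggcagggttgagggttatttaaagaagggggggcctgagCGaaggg

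The printed stretches of IL19 and FCMR hold 2 and 4 CpG, those of KIF1A and TMEM59L 17 and 21, and that of SMARCA1 holds 16. The same stretch at ORC6, not printed, also holds 16, although its shared region had a shift of only -0.08. IL19 encodes a cytokine of the IL-10 family and FCMR a receptor for immunoglobulin M, while KIF1A is a kinesin motor that carries vesicles along axons. The shared starts were less distinct, with 8 CpG at GGT1 (gamma-glutamyltransferase, which breaks down extracellular glutathione), 4 at LOC124901110, 6 at MANEAL and 3 at S100A2, a calcium-binding protein. Per base the shift at MANEAL was -20.9, the other way. In the lists, IL19 stood at the 54.7 percentile in siGl3 with H2O2 and had no siOrc6 peak with H2O2, while the untreated lists gave it 71.6 in siGl3 and 44.8 in siOrc6. The start of S100A2 stood at 2.93 in siGl3 and 45.8 in siOrc6 with H2O2, and at 40.7 and 41.0 in the untreated lists, so its low value was the siGl3 one with H2O2.

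Over whole classes, a promoter with an observed-to-expected CpG ratio above 0.6 was found at 18.2% of siGl3-only starts (95% Wilson interval 12.3 to 26.0) and 45.2% of siOrc6-only starts (38.0 to 52.6). Among shared starts it was 29.2% of 65 fallen ones (19.6 to 41.2), 64.5% of 166 risen ones (56.9 to 71.3) and 84.5% of 13552 with a smaller shift. Regions of 1 list were weak, and shared starts within the lowest 25% of both lists, 174 in number, gave 43.1% (36.0 to 50.5). Thus the siOrc6-only value lay close to that of weak shared starts and the siGl3-only value below both intervals. The wide interval for fallen starts overlapped those of both weak groups. All intervals take regions, or starts, to be independent and hold only the error of counting, although a gene can have several starts under 1 region.

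Promoters were also searched on both strands for 11 short motifs, whose matches are descriptions and not binding sites. TGANTCA, the core bound by AP-1 (FOS and JUN) factors, was present in 18.2% of siGl3-only promoters (22 of 121, interval 12.3 to 26.0) and 3.95% of siOrc6-only promoters (7 of 177, interval 1.93 to 7.94), against 6.15% of all. Fallen promoters gave 12.3% (8 of 65), risen ones 7.23% (12 of 166) and weak shared ones 13.8% (24 of 174, interval 9.45 to 19.7), so siGl3-only starts did not stand apart from weak shared starts and siOrc6-only starts lay below them. GGGCGG, the GC box of SP and KLF factors, was found in 31.4% of siGl3-only, 44.1% of siOrc6-only, 44.6% of fallen and 56.6% of risen promoters, against 56.3% of all. TGTGGT, a RUNX core, gave 21.5%, 11.9%, 15.4% and 12.05% in the same order against 11.3% of all. TATAAA gave 13.2%, 11.3%, 13.8% and 6.63% against 9.46%. TGACNNNGC, the antioxidant response core that NRF2 binds, gave 13.2%, 9.60%, 9.23% and 16.3% against 13.8%, and its matches can overlap those of TGANTCA. The other motifs were CCAAT (34.6% of all promoters), CCGGAAG (12.8%), the NRF1 motif (10.6%), GGAATG (12.2%), CACGTG (8.34%) and TGACGTCA (2.26%), and no siGl3-only promoter held a match to the NRF1 motif or to TGACGTCA.

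On the whole, control and Orc6-depleted cells under H2O2 opened the same sites. The siGl3 list held 103674 peaks and the siOrc6 list 97816, and each covered 62.8 Mb. Of the 110517 merged regions 87714 (79.4%) were shared, 13820 were siGl3 only (12.5%, interval 12.3 to 12.7) and 8983 siOrc6 only (8.13%, interval 7.97 to 8.29). This order depended on the length of the lists: with the siGl3 list shortened to its 97816 strongest peaks the counts were 10466 siGl3 only and 11298 siOrc6 only. Regions of 1 list were narrow, with median widths of 277 bp (siGl3) and 249 bp (siOrc6) against 565 bp for shared regions.

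Weak peaks made up nearly all of the difference between the lists. In the lowest 10% of each list by signal, 54.2% of siGl3 peaks and 43.4% of siOrc6 peaks had no counterpart, and in the fifth such class these shares were 5.00% and 1.72%. Only 233 siGl3-only and 81 siOrc6-only regions lay above the 50th percentile of their list. In the top 10%, 1 of 10368 siGl3 peaks had no counterpart, and none of 9782 siOrc6 peaks did, which allows a share of up to 0.0393% by the Wilson interval.

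**Figure D1:**
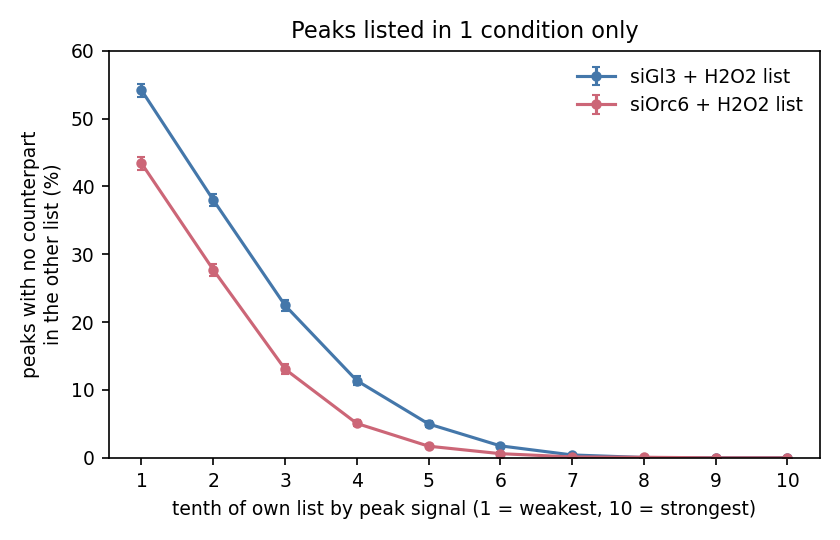
Share of peaks (y axis, percent) with no peak of the other H2O2 list at the same place, in 10 equal classes of the own list by peak signal (x axis, 1 weakest, 10 strongest), with 95% Wilson intervals. Both curves drop from above 40% to under 0.1%, and the siGl3 curve lies above the siOrc6 curve in the 7 weakest classes.

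Shared regions kept their order closely, and more of them fell than rose. The median shift was -0.664 points, 51.6% of shared regions moved by less than 5 points, and the percentiles of the lists correlated with a Spearman coefficient of 0.924 across 87714 regions, which share libraries and neighbours. By the threshold of 20 points 2768 had risen (3.16%) and 5562 had fallen (6.34%), a ratio of 2.01. This excess of falls depends on the weak end of the lists: ranked among shared regions only, an alternative chosen after seeing the data, the median was 0.189, with 3367 risen and 4211 fallen. The regions nearest the threshold stood at 8.9 and 28.9 (just inside, near IRF2BP2) and at 18.4 and 38.4 (just outside, near DAD1) for rises, and at 53.8 and 33.8 (near USP25) and 51.2 and 31.2 (near OGFRL1) for falls.

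Large shifts were changes of width as well as of height. The signal adds up over a peak and so grows with its width (Spearman 0.842 in siGl3 and 0.868 in siOrc6). The best peak of risen regions had a median width of 299 bp in siGl3 and 484 bp in siOrc6, and that of fallen regions 461 bp and 304 bp. Ranked by signal per base, 2278 of the 2768 risen regions still had a positive shift and 4948 of the 5562 fallen ones a negative shift, but only 1360 and 3319 of them still passed 20 points. Among the strongest shared regions, with a mean percentile from 80 to 100, only 4 of 19745 had risen and 6 had fallen, while in the class from 20 to 40 it was 7.86% and 15.1% of 18673.

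**Figure D2:**
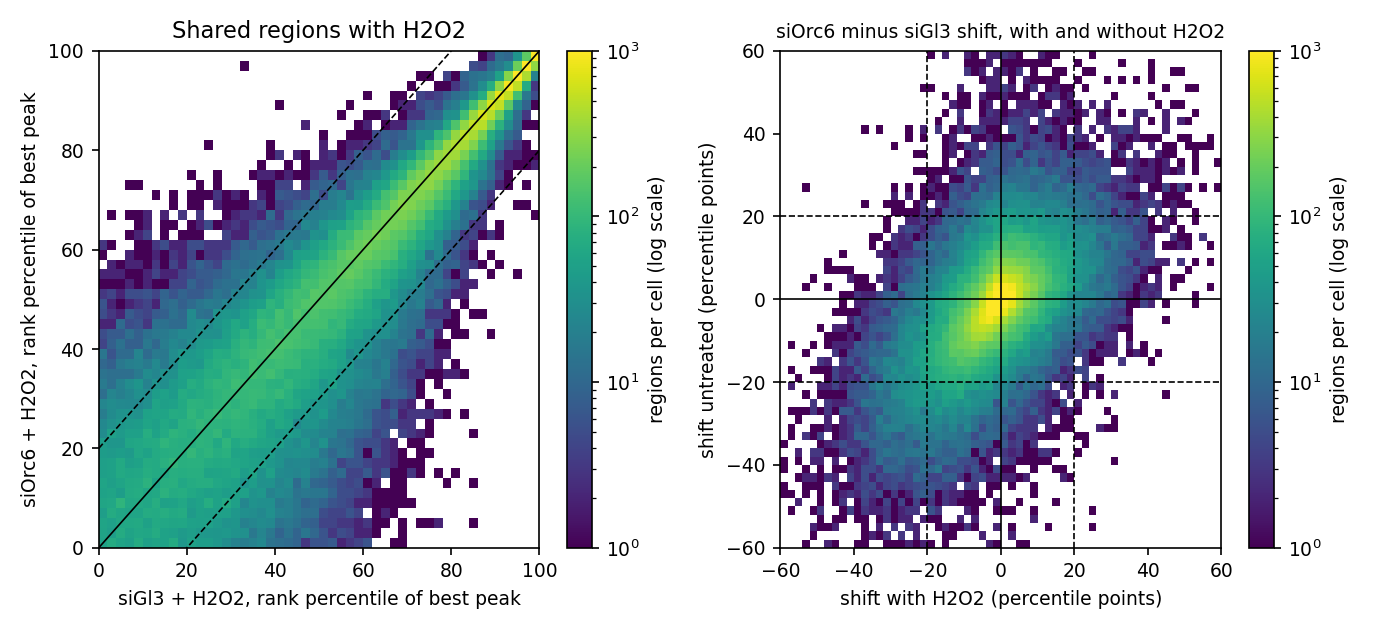
Left, rank percentile of the best peak of shared regions in the siGl3 (x axis) and siOrc6 (y axis) lists with H2O2, as a 2-dimensional histogram with a log colour scale, where the dashed lines mark shifts of 20 points. Right, siOrc6 minus siGl3 shift of the same regions with H2O2 (x axis) and untreated (y axis) (both in percentile points), where the cloud leans along the diagonal and few regions lie in the opposite corners.

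Counted by regions, gene starts were found far more often among those that gained standing in siOrc6 than among those that lost it. A protein-coding start lay within 1 kb of 555 of 8983 siOrc6-only regions (6.18%, interval 5.70 to 6.70) and of 283 of 13820 siGl3-only regions (2.05%, interval 1.82 to 2.30). Of risen regions 256 (9.25%, interval 8.23 to 10.4) were at a start, and of fallen ones 140 (2.52%, interval 2.14 to 2.96). Shared regions as a whole had 13.8% there. Within the lowest 25% of the lists the shares were 6.12% of 7697 siOrc6-only, 2.04% of 10867 siGl3-only and 3.94% of 9633 shared regions, so at like strength siOrc6-only regions lay above shared ones and siGl3-only regions below. The order of the siOrc6 and siGl3 classes was the same with windows of 500 bp and 3 kb and with the siGl3 list shortened. Classed by signal per base, however, 4.74% of fallen regions were at a start, above the weak shared regions, against 8.71% of risen ones. Counted by starts instead of regions, the contrast between the one-list classes was small. Of 15168 protein-coding starts with a region within 1 kb, 237 (1.56%) were siOrc6 only and 206 (1.36%) siGl3 only. Of the 14725 shared starts, 200 had risen and 112 had fallen.

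**Figure D3:**
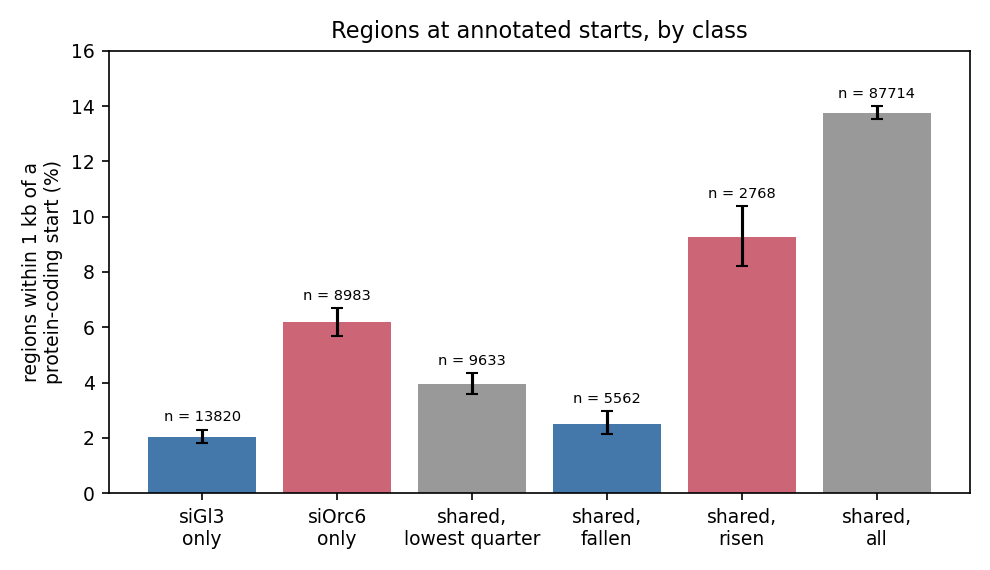
Percent of regions within 1 kb of an annotated protein-coding start (y axis) for each class of region with H2O2, with 95% Wilson intervals and the number of regions above each bar. The siOrc6-only and risen bars (6.18% and 9.25%) stand above the siGl3-only and fallen bars (2.05% and 2.52%), with weak shared regions at 3.94%; classed by signal per base, which is not drawn, fallen regions stood at 4.74%.

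Away from starts, regions lost in siOrc6 lay inside genes more often than regions gained. Gene bodies away from a start held 51.2% of siGl3-only regions (interval 50.4 to 52.1) and 48.7% of fallen ones (47.4 to 50.0), against 43.0% of siOrc6-only (42.0 to 44.0), 40.3% of risen (38.4 to 42.1) and 40.6% of all shared regions. Regions outside annotated protein-coding genes made up 46.7% of siGl3-only and 50.8% of siOrc6-only regions. Shared regions had 13.8% at starts, which lowers their share in gene bodies. Away from starts, 35619 shared regions lay in gene bodies and 40030 outside genes. The same counts were 2708 and 2714 for fallen, 7082 and 6455 for siGl3-only, 3864 and 4564 for siOrc6-only and 1114 and 1398 for risen regions. Regions of like strength were not compared here. By the number of protein-coding genes in 1 Mb bins, siOrc6-only regions made up 10.2% of regions in the bins with 0 to 4 genes and 6.94% in those with 20 or more, while siGl3-only regions stayed between 11.98% and 13.1% in all 4 classes of bin.

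At gene starts the 10 largest rises came from weak siGl3 peaks. TAFA5, which encodes a secreted brain protein, stood at 10.6 in siGl3 and 66.5 in siOrc6 with H2O2, and at 44.5 and 59.96 untreated. The best peak there was 218 bp wide in siGl3 and 1247 bp in siOrc6, and per base the shift was -5.43. MTCL3 went from 0.9 to 53.2 with H2O2 and had an untreated peak in siOrc6 only (52.1). PCDHA6, 1 of the clustered protocadherins that give neurons distinct surfaces, stood at 1.3 and 49.9 with H2O2 against 38.8 and 47.3 untreated. DCAF12L1 on chromosome X stood at 9.5 and 57.4, and SPATA13 at 15.1 and 61.5. Of these 10, only the SPATA13 region was in the authors' deposited table of higher regions. The remaining starts were RAB31 (4.4 and 50.2), MLLT11 (0.2 and 46.0), TMCC2 (12.2 and 57.0), MANEAL (10.9 and 54.8) and PTBP1, a splicing regulator (7.3 and 51.1). In all 10 the siGl3 value was 15.1 or lower and the siOrc6 value 46.0 or higher, which a pick by largest rise favours. Per base, 3 of the 10 still passed 20 points.

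The 10 largest falls at starts came from siGl3 peaks of middle rank. The region near the start of BCR, a signalling protein known from its fusion with ABL1, stood at 59.9 in siGl3 and 1.4 in siOrc6 with H2O2, and at 90.4 and 49.8 untreated. It lies in RSPH14 (chr22:23179349-23179924) and was the only one of the 10 in the authors' deposited table of lower regions. GGT1 stood at 70.2 and 25.4 with H2O2 and 54.9 and 17.1 untreated, and since it has close copies in the genome its value is uncertain. CYTH3, an exchange factor for ARF proteins, stood at 59.2 and 16.1, against 82.8 and 41.0 untreated. CHRD and THPO, a BMP antagonist and the hormone thrombopoietin, shared a region at 67.1 and 24.2. ADGRG7 (54.0 and 10.1), TMEM121 (44.5 and 3.8), LOC124901110 (62.3 and 21.7), PPP2R1A, a scaffold subunit of protein phosphatase 2A (47.8 and 7.2), BRF1 with PACS2 (51.2 and 11.5) and GPR146 (51.8 and 12.4) complete the set. At TMEM121 and at BRF1 with PACS2 neither untreated list had a peak, and per base the BRF1 shift was 17.4, the other way. Of the 10 falls 5 still passed 20 points per base.

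Strong one-list regions at starts were few. The strongest siOrc6-only one was at an ANTXR1 start, a collagen-binding receptor, at 53.5, although both untreated lists had a peak there (58.0 in siGl3 and 96.9 in siOrc6). PGAM2, the muscle phosphoglycerate mutase, followed at 52.0, then OSBPL5 (49.3), KCTD8 (48.8), GSC2 (47.2), E4F1 (46.2), COPZ1 (45.9) and RAPH1 (45.2). E4F1 had strong untreated peaks at the same place in siGl3 (98.3) and siOrc6 (98.2). Among siGl3-only starts LRTM2 led at 59.7, followed by the region shared by IL10 and IL19 (54.7), FCMR (52.6), the TNF-family ligand TNFSF14 (48.9), C16orf82 (48.7), PADI2 (48.2), the bile acid receptor GPBAR1 (44.8) and WNT10A (42.9). Of these 8 regions 4 were in the authors' deposited table of lower regions, at IL10 with IL19, FCMR, C16orf82 and PADI2, and of the 8 siOrc6-only ones GSC2 was in that of higher regions.

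Away from starts, where far more regions lay, the extreme values were larger, as extremes of a larger set tend to be. The strongest siGl3-only region (chr18:39801018-39803230) stood at 95.1 in siGl3 with H2O2 and had no siOrc6 peak there, while untreated it stood at 98.5 and 90.5. It lay 2026 kb from the nearest protein-coding gene. Others among the 10 strongest were near CELF2 (78.1) and inside ADGRB1 (77.1), SDK1 (75.2) and SIAH3 (70.6), followed by those near RABAC1 (70.1) and in CAMTA1 (70.0), near GPR135 (68.3) and in CPXM2 (68.0). All 10 were in the authors' deposited table of lower regions, and 6 of the 10 had an untreated peak in siGl3 alone. The siOrc6-only ones were headed by chr19:57047206-57048012, 71.1 kb from USP29, at 73.8, which also had an untreated siOrc6 peak (75.8) and no siGl3 one. Others among the 10 were inside PRKG1 (70.4) and near PI15 (70.2), LOC105371206 (70.3), ZXDA (70.9) and C13orf46 (67.8), with a pair on chromosome 19 that lay 1470 and 1513 kb from UQCRFS1 (72.3 and 68.6). Of these 10, 8 were in the authors' deposited table of higher regions.

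Over all shared regions the largest fall was at chr5:108670515-108671427, 76.5 kb from FER, from 85.7 in siGl3 to 5.2 in siOrc6, with 88.8 and 46.2 untreated. Others were inside ALK (77.2 to 4.1), CEACAM18 (68.1 to 1.0) and ACTN4 (78.5 to 12.3), and near CCL22 (74.6 to 4.4), SPRY4, an inhibitor of growth factor signalling (73.0 to 4.5), and CERK (68.7 to 2.7). The remaining 3 lay on chromosome 8 near COL22A1 (86.0 to 12.9), LYPD2 (76.7 to 5.9) and TSNARE1 (66.8 to 1.3). Per base the shift near COL22A1 was 0.3875, the other way, and that near TSNARE1 was -3.86. The largest rise was at chr19:27859191-27861256, from 32.7 to 97.6, with 80.9 and 99.4 untreated. Others were near DOCK1 (7.5 to 72.3), GPC5 (8.9 to 72.7), TMEM170B (1.8 to 60.3) and INSIG2 (9.0 to 67.0), and inside ZNF420 (2.4 to 66.6), TCP11L1 (6.3 to 67.4), UMODL1 (0.1 to 60.5), MUC12 (2.0 to 62.0) and FLNA (0.7 to 58.6). For each of these rises, FLNA included, the untreated siGl3 value was higher than the one with H2O2. At FLNA all values but the siOrc6 one with H2O2 were under 20. A pick by largest rise favours low siGl3 values with H2O2, so a higher value in another list can follow from that choice. Per base the FLNA shift was 0.820, and ranked by the authors' −log10 p it was 3.71. The treatment of multi-mapping reads, which bears on these sites of chromosome 19 far from genes, was not stated.

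The untreated lists, made from other libraries of the same 2 batches, moved the same way at most of these regions. Of the 5562 fallen regions 4405 had a peak in both untreated lists, and there the untreated shift was negative in 90.6%, with a median of -19.0. Of the 2768 risen regions 2489 did, with a positive untreated shift in 84.0% and a median of 11.2. Over all 81519 regions with a peak in every list 45.0% had a positive untreated shift, and the shifts with and without H2O2 correlated with Spearman 0.536 and Pearson 0.545, given as a description across regions. Both shifts passed 20 points in the same direction at 605 regions that rose and 2090 that fell.

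Regions of 1 list split more. Over all merged regions 82.1% had a peak in both untreated lists, 7.12% in siGl3 alone, 3.93% in siOrc6 alone and 6.86% in neither. Of siGl3-only regions 34.6% were also siGl3 only when untreated (interval 33.8 to 35.4), 33.0% had a peak in both untreated lists, 28.6% in neither and 3.86% in siOrc6 alone. Of siOrc6-only regions 51.7% had a peak in both untreated lists (interval 50.6 to 52.7), 23.4% in siOrc6 alone, 19.7% in neither and 5.23% in siGl3 alone. The order thus differed, since most siOrc6-only regions had been listed in both untreated conditions and so lacked a peak only in siGl3 with H2O2.

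The authors' changed regions were a small part of these differences. The authors' deposited table of higher regions held 1143 and that of lower regions 1464. Their cut-off was not stated. They touched 1249 (1.13%) and 1556 (1.41%) of the merged regions. Of the siOrc6-only regions 7.34% and of the risen ones 12.3% were in the authors' deposited table of higher regions, and of the siGl3-only regions 8.11% and of the fallen ones 6.72% in that of lower regions. The shared regions in the authors' deposited table of higher regions, 585 in number, had a median shift of 24.1 (562 positive), and the 434 in that of lower regions one of -35.8 (425 negative). Since these tables came from the same libraries, this describes them and adds no support.

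Genes with most regions in the authors' deposited tables were mostly long ones. For lower regions these were TRAPPC9 (7), COL22A1 and RBFOX1 (6 each), RGS6 (5), FSTL4, PPARGC1B and SLIT3 (4 each) and TNFRSF8 (3). In SLIT3, a guidance ligand, 8 merged regions were siGl3 only and 5 siOrc6 only, with a median shift of -8.23 over 20 shared ones. In PPARGC1B, a coactivator of mitochondrial genes, 4 were siGl3 only and none siOrc6 only, with a median shift of -8.30 over 12. For higher regions they included GALNT13, GALNTL6, LRMDA, GABRG3 and ANKFN1 (3 each), and DAB1 and SMYD3 (2 each). GABRG3, a GABA receptor subunit, had 5 siOrc6-only and 1 siGl3-only region and a median shift of 2.73 over 18 shared ones. These counts were not scaled for gene length, which ran from 80.9 kb (TNFRSF8) to 2474 kb (RBFOX1).

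The balance differed along the genome in the same way with and without H2O2. Chromosome X had 276 siOrc6-only regions of 2172 (12.7%, interval 11.4 to 14.2) and 224 siGl3-only ones (10.3%, interval 9.10 to 11.7), and its shared regions had a median shift of 0.533, the only positive one among the 23 chromosomes, against 0.839 untreated. With ranks among shared regions only, 19 of the 23 medians were positive. Chromosome 13 also had more siOrc6-only (11.7%) than siGl3-only regions (10.3%). This contrast depended on list length, since with the siGl3 list shortened siOrc6-only regions were the more numerous on 16 of the 23 chromosomes. At the other end stood chromosome 22 (6.27% and 17.02%), chromosome 7 (8.47% and 15.2%) and chromosome 8 (6.86% and 14.96%, median shift -1.45). The median shifts of the chromosomes with and without H2O2 correlated with Spearman 0.961 over the 23 chromosomes, the siGl3-only shares with 0.887 and the siOrc6-only shares with 0.841, as a description. By those ranks among shared regions X again had the highest median shift (2.14) and chromosome 8 the lowest (-0.383).

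**Figure D4:**
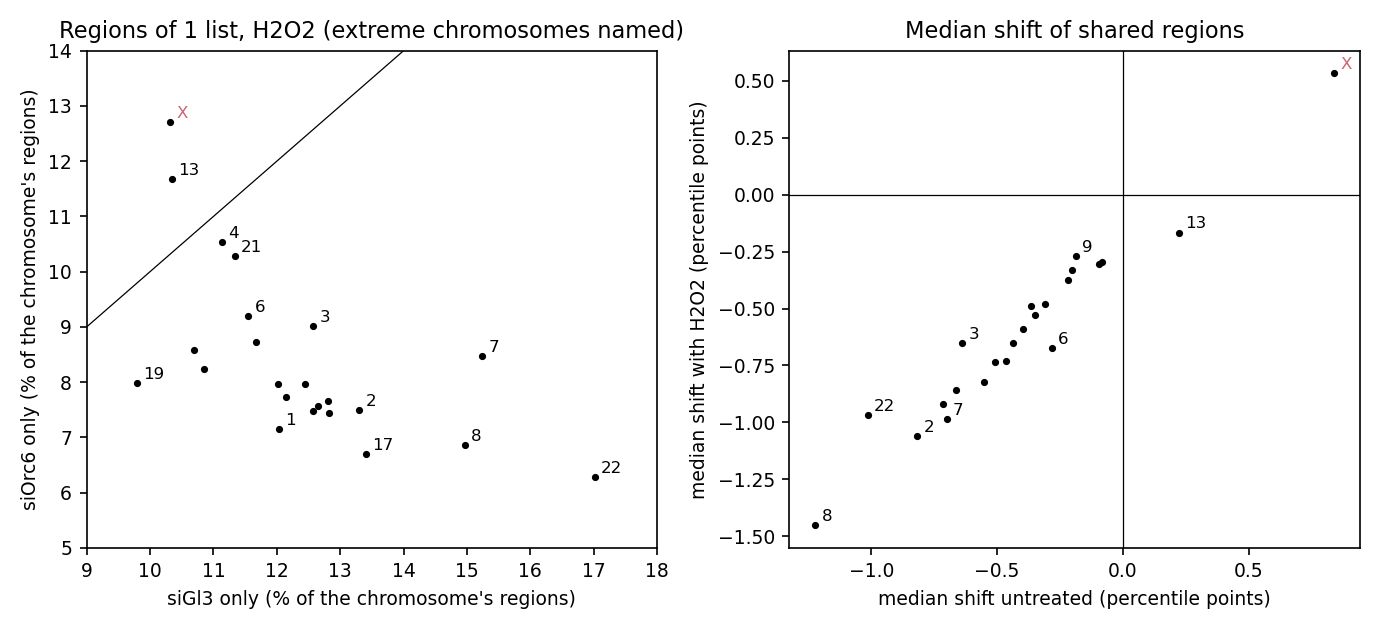
Left, percent of each chromosome's merged H2O2 regions that were siGl3 only (x axis) and siOrc6 only (y axis), 1 point per chromosome, with the line of equal shares. Right, median siOrc6 minus siGl3 shift of shared regions per chromosome untreated (x axis) and with H2O2 (y axis), in percentile points; chromosome X is the point at 0.839 and 0.533.

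Single stretches of 1 Mb were picked by their numbers of one-list regions or by their median shifts, so they are extremes by choice. In the bin from 142 to 143 Mb of chromosome 8, which holds ADGRB1, JRK, PSCA and genes of the LY6 family, 90 of 248 regions were siGl3 only and 4 siOrc6 only, with 37 fallen, 3 risen and a median shift of -9.21. Untreated it had 63 siGl3-only and 7 siOrc6-only regions and a median of -9.89. On chromosome 7 the bin from 1 to 2 Mb, with MAFK, GPER1 and INTS1, had 73 siGl3-only, 15 siOrc6-only and 58 fallen regions of 294 (median -8.14, untreated -10.5), and that from 2 to 3 Mb had 75, 7 and 20 of 211. The 3 bins with the highest numbers of siOrc6-only regions held 20 of 194 on chromosome 17 (81 to 82 Mb, with ACTG1), 19 of 177 on chromosome 22 (20 to 21 Mb) and 16 of 160 on chromosome 16 (2 to 3 Mb), where siGl3-only regions were still more numerous (33, 37 and 24). A pick by number favours bins with many regions, and over all merged regions 8.13% were siOrc6 only and 12.5% siGl3 only. Of 1700 bins with at least 20 shared regions 410 (24.1%) had a positive median shift. That share rests on ranks within each full list. With ranks among shared regions only, the median over all shared regions was 0.189, and bins were not ranked that way. The highest bin medians were on chromosome 21 from 9 to 10 Mb (8.67, untreated 7.52) and chromosome 6 from 106 to 107 Mb with PRDM1 and ATG5 (5.997, untreated 0.839). Next was chromosome 20 from 21 to 22 Mb with NKX2-2 and PAX1 (4.92, untreated 1.33). These 3 medians rest on 20, 25 and 40 shared regions, against 154 in the chromosome 8 bin, and medians of few regions vary more.

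At the level of genes the start regions hardly moved in rank. Of 19974 protein-coding genes 14042 had a region at the start (at either gene end for the 4162 genes with no start in the table, among them those of chromosome 8), of which 13636 were shared, 198 siGl3 only and 208 siOrc6 only. The shared ones had a median shift of -0.01, with quartiles of -0.82 and 1.38, and 172 had risen and 121 fallen. They stood high, with median percentiles of 89.7 in siGl3 and 89.9 in siOrc6. At mean percentiles from 80 to 100 only 4 of 19745 shared regions of any kind had risen and 6 had fallen. Small shifts in rank there do not show that the signal was unchanged, and gene starts were not compared with other regions of like strength. All 6 subunits of the origin recognition complex had a shared region, with shifts from -0.552 (ORC2) to 2.52 (ORC5). ORC6, the knocked-down gene, stood at 99.4 in siGl3 and 99.3 in siOrc6 with H2O2, and at 99.6 and 99.3 untreated, and since an siRNA acts on the mRNA this does not check the knockdown. ORC1 stood at 92.6 and 94.4, ORC2 at 95.3 and 94.8, ORC3 at 81.3 and 82.8, ORC4 at 92.5 and 92.6, and ORC5 at 77.5 and 79.98.

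The genes that act with the complex mostly stood as high in the lists and had shifts as small. Of 21 genes of origin licensing and firing all had a shared region (median shift -0.20), led by CDT1, the MCM loader (77.3 and 80.3), and MTBP, a firing factor (82.5 and 79.5). The 30 replication fork genes had a median of 0.33, with RFC3, a clamp loader subunit, at 67.6 and 72.0 and POLD1, the catalytic subunit of polymerase delta, at 98.1 and 94.4. Among ISWI remodellers SMARCA5 stood at 93.6 and 92.7, BAZ1A at 96.7 and 96.3 and BAZ1B at 97.3 and 96.9, while RBBP7, on chromosome X, stood at 64.9 and 74.0. SMARCA1, also on X, was the only one of 12 ISWI genes with a region in 1 list: it had no siGl3 peak, 38.9 in siOrc6 with H2O2 and 4.63 in untreated siOrc6. Of 56 replication-dependent histone genes 35 had a region, often in common (24 distinct regions), with a median of -0.24. H2BC17 was siOrc6 only (18.6, and 17.4 and 36.6 untreated), H4C9 stood at 70.8 and 81.2, H4C3 at 63.4 and 70.5 and H3C2 at 87.5 and 83.3.

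Genes of damage and stress showed no list-wide shift in rank either, but their high ranks left little room for one. Median siGl3 percentiles of these lists ran from 93.3 (base excision repair) to 97.7 (immediate-early), where a rise past the threshold is not possible. Small shifts at such ranks, and the lack of risen members, do not show that the signal was unchanged. Median shifts were 0.06 for 8 mismatch repair genes, 0.27 for 21 of base excision repair, 0.11 for 26 of double-strand break repair, 0.08 for 32 antioxidant genes, -0.01 for 29 immediate-early, -0.06 for 18 heat shock and 0.01 for 26 p53 target genes, against -0.01 over all genes, and no member had risen or fallen. Members with large shifts for their lists were FANCD2, of crosslink repair (74.1 and 81.4), SMUG1, a uracil glycosylase (69.1 and 76.2), SLC7A11, the cystine importer (64.3 and 76.1), GPX4, which reduces lipid peroxides (91.9 and 99.3), EGR2 (90.8 and 79.2) and NR4A1 (77.4 and 87.7). In the cell cycle lists CCNE2, the cyclin E2 of the G1/S step, stood at 78.2 and 94.8, PLK1, a mitotic kinase, at 80.3 and 91.0, and UHRF1, which maintains DNA methylation, had no siGl3 peak with H2O2 and 37.6 in siOrc6 (6.47 and 43.9 untreated).

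Among other lists, MYOF of the YAP and TEAD targets stood at 70.4 and 52.7, and of the matrix genes LTBP2 stood at 66.1 and 82.1, COL6A2 at 70.6 and 85.5 and COL1A2 at 12.8 and 27.1. OAS1, an interferon-induced RNA sensor, was siOrc6 only with H2O2 (38.7) although both untreated lists had it (39.3 and 46.1). RPL32 (66.9 and 79.7) and RPS7 (65.7 and 76.9) moved most of 54 ribosomal protein genes, whose median was 0.31. HELLS, a remodeller needed for DNA methylation, stood at 35.9 and 47.6.

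Markers of the labelled cell type had a region about as often as all genes. Of 21 osteoblast and mesenchymal genes 15 (71.4%) had one, against 70.3% of all protein-coding genes. RUNX2, the osteoblast master factor, stood at 43.3 and 54.9, while ALPL, TWIST1 and THY1 had no region within the window. BMP2, a bone morphogen, had fallen (60.0035 and 33.3, no untreated peak), and CDH11 was siGl3 only at 9.09. Of the other cell types 5 of 12 epithelial, 8 of 13 blood and 12 of 18 neuronal genes had a region, and among those with none were CDH1, PTPRC and ELAVL3. CD79A, a B-cell receptor component (8.90 and 39.4), and GAD1, which makes GABA (57.3 and 78.1), were the 2 that had risen. Open chromatin at a start does not show that the gene is transcribed.

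**Figure D5:**
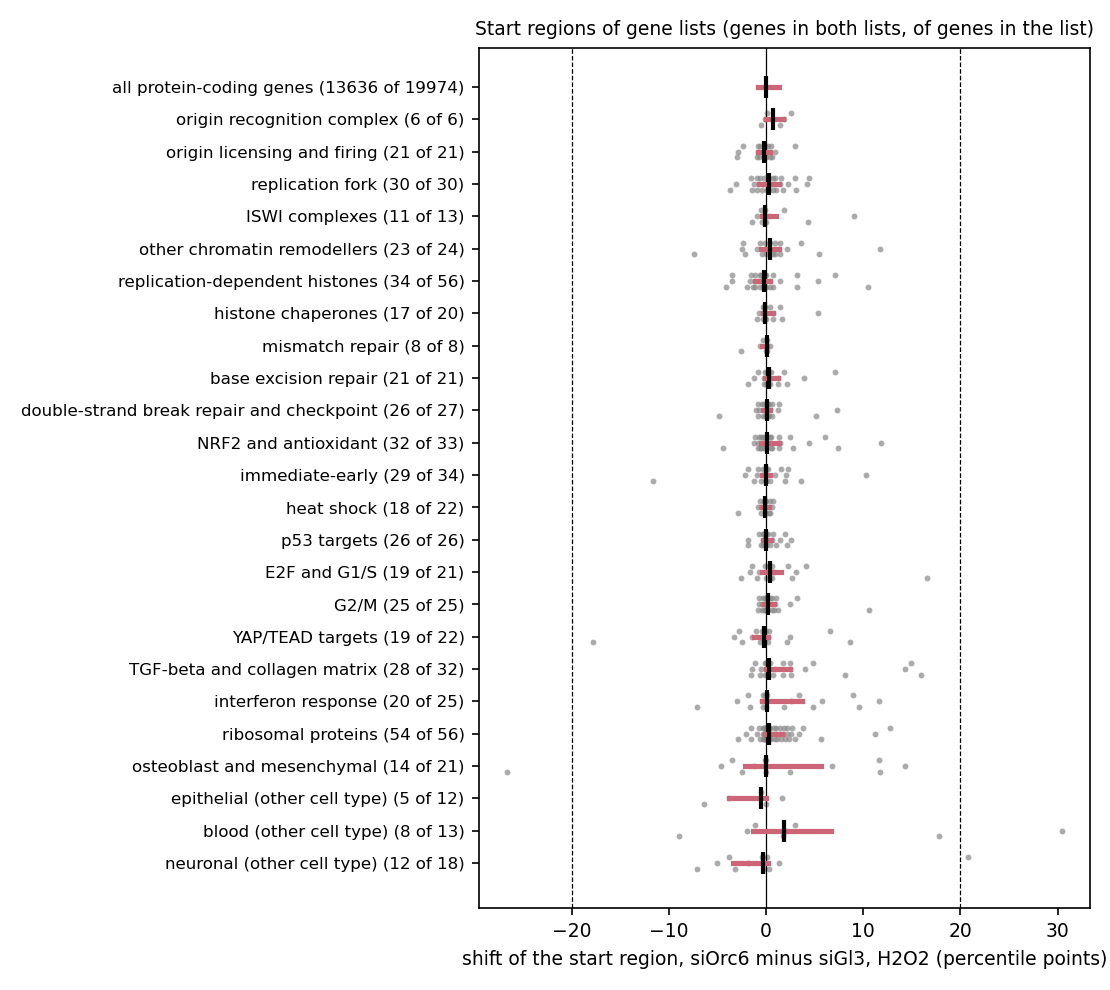
Shift of the start region of each gene with a shared region (grey points, x axis, percentile points) for the 24 gene lists and, without points, all protein-coding genes; black ticks are medians and red bars the middle 50% of genes. Dashed lines mark 20 points, and the points beyond them are BMP2, CD79A and GAD1.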

How the data were processed

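ATAC-seq peaks of siOrc6 and siGl3 cells, with and without H2O2, were used as deposited, 1 list per condition. Per the submitters' processing notes, the tools were Genrich, edgeR, Bowtie2, deepTools, SAMtools, Picard and bcl2fastq 2.20, with build hg38. Tool roles, thresholds and transposase shifts were not given in the sources used here. Within each deposited list the seventh column is a signal summed over the peak, with a lowest value just above 200.0, and the fifth is a score equal to 1000 times that signal per base, limited to 1000, in 100% of peaks. The eighth column is the authors' −log10 p-value, used only as an alternative rank. The authors' lists of higher and lower regions give positions alone and were used as description. Depth is unknown, so precision cannot be given from read numbers.

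Peaks on chromosomes 1 to 22 and X were merged where they overlapped or touched, leaving out 160 (siGl3) and 168 (siOrc6) peaks on other sequences with H2O2. Signal was ranked within each list. With 1 list per condition no test was made; shares carry Wilson 95% intervals. Genes, starts and promoter sequences came from RefSeq tables of GRCh38.p14, which matches hg38, and 15812 of 19974 protein-coding genes had a start there. Shares at starts count chromosome 8, which had none, as away from starts. Named items were the 10 strongest or most shifted regions of each kind (8 for one-list starts), up to 4 members per gene list, 8 genes per authors' direction, the 3 bins richest in each one-list class and fixed ORC and ISWI genes; the bins of extreme median shift, the largest shifts away from starts, cell type markers at 0 and the printed promoters lie outside that rule, picked once values had been seen. Alternatives changed merging, overlap, list length, ranking, thresholds and windows. Members, gene lists and comparisons were chosen with earlier results of these data known. Merging and ranking were tested on simulated data. Software was matplotlib 3.10.9, scipy 1.17.1, pandas 2.3.3, numpy 2.4.6 and Python 3.11.15. Some named items are not reported here.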

Additional observations from a re-analysis of the deposited data

Results flagged for a closer look

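At 66 of the 81519 regions with a peak in every list, the siOrc6 minus siGl3 shift passed 20 points one way with H2O2 and 20 points the other way untreated, 27 of them risen and 39 fallen with H2O2. With 1 list per condition the difference between the treatments was not tested. Ordered by the smaller of the shifts with and without H2O2, the first were inside ARHGAP20 (chromosome 11), where the shift was -37.0 with H2O2 and 40.2 untreated, near GRIA1 (-32.6 and 41.6), near CBLN4 (31.7 and -31.4) and inside ANKRD30B (30.1 and -38.7).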

How the results depend on the processing

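No paired analysis was possible because each condition had 1 list that carries both replicate numbers, and leaving out a library was not possible for the same reason. With peaks of a signal of 400 or more, siGl3-only regions numbered 8471. The median shift was -0.550 with signal summed over the region, -0.729 for regions with 1 peak of each list, and 0.189, the other way, with ranks among shared regions only. Ranked by signal per base, 6129 regions had risen and 10138 fallen. A threshold of 10 points gave 9435 and 14931, and one of 30 points 773 and 1827. More regions fell than rose under each ranking and threshold tried. With a window of 500 bp the shares at starts were 1.27% (siGl3 only), 3.15% (siOrc6 only), 1.64% (fallen), 6.54% (risen) and 12.5% (shared), and with 3 kb they were 6.10%, 12.4%, 5.97%, 14.7% and 17.5%. Fallen regions classed by signal per base gave 4.74%, shared regions without chromosome 8 gave 14.5%, and weak shared regions 3.94%. Asking for 0.5 of the deposited region to overlap, 37.4% of regions in the authors' deposited table of higher regions had a siGl3 peak and 19.3% of those in the table of lower regions a siOrc6 peak. Of 40 named shared regions 4 turned direction per base, near COL22A1 (0.3875), at BRF1 with PACS2 (17.4), TAFA5 (-5.43) and MANEAL (-20.9), and none did under the other rankings. The cause of these changes was not tested. Ranking among shared regions, classing by signal per base, leaving out chromosome 8 and shortening the list for positions were chosen after seeing the data. Read depth was not known, so which weak one-list regions fell short only by depth cannot be told.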

Other observations

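Starts of long noncoding RNA genes, which no comparison above used, were more often listed in 1 condition only. Of 4899 such starts with a region within 1 kb, 199 (4.06%) were siGl3 only and 175 (3.57%) siOrc6 only, against 206 (1.36%) and 237 (1.56%) of 15168 protein-coding starts with a region. Among shared ones 81 noncoding starts had risen (1.79%) and 116 had fallen (2.56%), while of protein-coding starts 200 had risen (1.36%) and 112 had fallen (0.761%). So the balance at noncoding starts leaned to falls and that at protein-coding starts to rises. The strength of these regions was not matched.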
